A study of Homo sapiens with 10 samples.

Results

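The 5 encorafenib and binimetinib resistant (E+BRes) melanoma lines were compared by the origin of the tumour from which each parental line had been grown. The members were the 5 resistant libraries of the 10 in the series, 3 of primary origin (WM983A, WM278 and WM902B E+BRes) and 2 of metastatic origin (WM983B and WM1617 E+BRes). All 5 lines carry the BRAF V600E mutation and wild-type NRAS and were grown in culture. Selection had started at 1 nM of the inhibitor mixture and reached 200 nM within 3 to 5 months, and the resistant cells of both origins were kept in 200 nM, so every library compared here came from cells under drug. The 5 sensitive libraries are the parental lines without drug. Each line and state gave 1 library of 1 culture, so the lines served as the replicates and no value within a line has an error. Following the study's description of its lines, WM983A and WM983B came from 1 patient and WM278 and WM1617 from another, while WM902B has no partner. WM983A and WM278 had been derived from nodular tumours and WM902B from a superficial one, and no such type is stated for the metastatic lines in the sources used here. Each of the 2 patient pairs holds 1 line of either origin.

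BRAF V600E keeps the kinases MEK and ERK active, and encorafenib blocks the mutant BRAF and binimetinib blocks MEK. ERK activity is read in the transcripts of its own feedback inhibitors and of the ETS factors ETV1, ETV4 and ETV5. Melanoma cells under such inhibitors are known to move between a pigmented state driven by the factor MITF and dedifferentiated states that lack pigment genes. The factor NRF2 (gene NFE2L2) answers oxidative and electrophilic stress by switching on enzymes of glutathione synthesis, quinone reduction, the pentose phosphate pathway and drug export.

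In brief, transcripts of NRF2 targets and detoxifying enzymes were lower in the resistant lines of metastatic origin, with 14 of 25 tested members called lower and a negative log2 fold change in all 25. Of 18 pigment genes 6 and of 19 ERK output genes 3 were higher in the lines of metastatic origin, and the direction of both lists rested on WM1617 E+BRes. Genes of matrix, proteases, integrins and epithelial-mesenchymal transition were called in small numbers, often from 1 metastatic line. No single gene passed an adjusted p in edgeR's quasi-likelihood test, so each gene called here rests on an unadjusted p.

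The upstream sequences of 4 called pigment genes are shown first, because the genes are higher in both or 1 of the metastatic lines and share a short motif that MITF is known to bind, CATGTG. The motif was searched on both strands in the 250 bases before each RefSeq start (GRCh38.p14). It occurred in 10 of the 17 members of the pigment list that had a promoter entry and in 4 of the 5 called ones, beside 11.5% of 27305 genes in all. The matches are in capitals.
GPR143, chrX:9765848-9766097, minus strand: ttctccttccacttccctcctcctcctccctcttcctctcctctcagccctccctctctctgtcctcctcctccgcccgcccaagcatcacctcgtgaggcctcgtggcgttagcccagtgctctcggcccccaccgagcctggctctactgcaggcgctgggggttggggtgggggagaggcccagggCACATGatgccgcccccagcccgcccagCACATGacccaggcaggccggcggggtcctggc
DCT, chr13:94479683-94479932, minus strand: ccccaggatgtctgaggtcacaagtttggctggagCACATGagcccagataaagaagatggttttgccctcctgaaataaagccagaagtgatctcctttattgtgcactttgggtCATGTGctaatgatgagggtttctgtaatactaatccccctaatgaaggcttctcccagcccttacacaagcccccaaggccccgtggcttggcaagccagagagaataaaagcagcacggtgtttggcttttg
TYR, chr11:89177625-89177874, plus strand: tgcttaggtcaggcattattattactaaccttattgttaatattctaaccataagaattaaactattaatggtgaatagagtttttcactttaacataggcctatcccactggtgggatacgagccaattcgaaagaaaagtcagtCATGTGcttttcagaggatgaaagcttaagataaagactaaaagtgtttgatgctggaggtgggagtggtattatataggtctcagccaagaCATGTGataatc
SLC24A5, chr15:48120740-48120989, plus strand: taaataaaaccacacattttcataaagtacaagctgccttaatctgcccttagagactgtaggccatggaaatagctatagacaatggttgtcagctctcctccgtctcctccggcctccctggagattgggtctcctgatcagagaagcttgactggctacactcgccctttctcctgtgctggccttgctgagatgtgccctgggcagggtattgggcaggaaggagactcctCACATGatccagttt

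For the detoxifying list the core of the antioxidant response element, the motif TGACNNNGC that NRF2 binds, was searched in the same way. It occurred in 5 of the 19 members with an entry and in 2 of the 12 called ones, beside 13.2% of all genes, and the sites of the called members GCLM and PGD are shown with 10 bases on each side.
GCLM, chr1:93909446-93909474, minus strand: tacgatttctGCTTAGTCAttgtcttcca
PGD, chr1:10398853-10398881, plus strand: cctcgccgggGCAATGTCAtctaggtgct
A match is a description of the letters and not of a bound site. In GCLM the match begins 34 bases and in PGD 201 bases before the RefSeq start.

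The resistant libraries held 13693922 to 18033247 counts, so a floor of 3 counts is equal to 0.166 to 0.219 CPM (count per library size, on the usual CPM scale). Before any comparison, the libraries were set against each other over 18580 genes on the log2(CPM + 0.5) scale. WM983A E+BRes stood apart from its parent. Its correlation with the sensitive WM983A library was 0.827, below the 0.845 it reached with sensitive WM902B. The identity of this library was not tested, and the ratios within WM983A and within its patient pair rest on its label. Each of the other 4 was closest to its own parent, with correlations from 0.897 in WM902B to 0.985 in WM1617. The 2 resistant lines of metastatic origin correlated at 0.833 with each other, within the range of 0.8115 to 0.853 among the 3 of primary origin. The lines described as coming from the same patient were not closer either, at 0.836 for WM983A and WM983B E+BRes and 0.816 for WM278 and WM1617 E+BRes. In the sensitive state WM983A and WM983B correlated at 0.972, but WM278 and WM1617 at 0.832, below the 0.938 of WM1617 with WM902B. These correlations are across genes and are given as a description. Of the factors that define the melanocyte lineage, SOX10 measured 6.44 CPM in WM983A, 0.675 CPM in WM902B and 12.5 CPM in WM983B E+BRes. It measured 273 and 343 CPM in WM278 and WM1617 E+BRes, so SOX10 was low in a part of the resistant lines of either origin. MITF ranked these lines otherwise, at 219 CPM in WM902B and 14.4 CPM in WM278 E+BRes. The 9 melanocyte markers summed to 90.4, 944 and 260 CPM in WM983A, WM278 and WM902B E+BRes. In WM983B and WM1617 E+BRes they summed to 164 and 4534 CPM. Of the 9 leukocyte markers, the lymphocyte genes CD3E, CD3D and MS4A1 were at 0 in all 5 resistant libraries and PTPRC (CD45) at no more than 0.116 CPM. The list summed to 4.71 to 37.0 CPM in the primary and to 45.1 and 70.7 CPM in the metastatic lines, mostly from the lysosomal gene CD68, at 16.8, 4.58 and 34.2 CPM in WM983A, WM278 and WM902B E+BRes and 39.1 and 67.3 CPM in WM983B and WM1617 E+BRes (not called). Of the 8 keratinocyte markers KRT1 and DSG1 were at 0 in all 5, and the list summed to 38.2 and 25.55 CPM in the metastatic and 39.4 to 98.3 CPM in the primary lines, with KRT10 as the main part in 4 of the 5 and called lower (log2 fold change -1.66). The 7 endothelial markers, with CDH5 at 0 in all 5, summed to 0.69 to 12.3 CPM. The part of these genes in the results was not tested. The summed fibroblast markers ranged from 9.42 CPM in WM983A E+BRes to 1699 CPM in WM902B E+BRes, with COL1A1 as the main part and COL1A2 at no more than 0.809 CPM. In these bulk libraries fewer cells of a kind and less RNA per cell cannot be told apart.

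edgeR's quasi-likelihood test compared the 2 metastatic with the 3 primary resistant libraries over 18820 genes. A gene was called if its unadjusted p was no more than 0.05 and its fold change no less than 2. By this rule 301 genes (1.6% of those tested) were higher and 368 (1.96%) were lower in the lines of metastatic origin. The smallest adjusted p (Benjamini-Hochberg) was 0.9966, and no gene passed it. At an unadjusted p of at most 0.05 whatever the fold there were 675 genes, 3.59% of those tested, fewer than the 941 that evenly spread p-values would give. limma-voom also found no gene past an adjusted p, whereas DESeq2 found 209. The 5 libraries can be split into 2 and 3 in 10 ways, too few for an exact permutation to reach p = 0.05, so none was run. Single genes are given below by their log2 fold change, its error and whether they were called. Of the genes called higher, 249 are protein-coding and 35 are lncRNA genes, and of those called lower, 292 and 39. In 255 of the 301 and 342 of the 368 the groups did not overlap. Over all genes tested, both metastatic libraries lay above all primary ones in 7.1% and below them in 8.14%. The calls leaned on single libraries: 577 higher and 543 lower without WM983B E+BRes, and 180 of the 669 called genes remained called without WM1617 E+BRes, where 328 were higher and 246 lower. Of the 75 called genes that the naming rule gave, 38 were called in all 5 leave-outs, and 45 remained called without WM1617 E+BRes. Of 10 further called genes named after their values were seen (NQO1, GCLC, TKT, TALDO1, ABCC2, ABCB1, MLANA, SLC24A5, POSTN and TGFBR2), 0 were called in all 5 leave-outs. In the values that follow, the CPM of the primary lines are given in the order WM983A, WM278 and WM902B E+BRes and those of the metastatic lines in the order WM983B and WM1617 E+BRes. A log2 fold change is metastatic over primary, with its standard error (SE).

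NRF2 targets and detoxifying enzymes formed the list with the most uniform difference. Of its 25 tested members, 14 were called lower in the lines of metastatic origin and none higher, beside 1.96% of all genes called lower. All 25 had a negative log2 fold change, and in 20 both metastatic libraries lay below every primary one, beside 8.14% of all genes. The median log2 fold change of the list was -2.44, against -0.04 over all genes tested. GCLM, the modifier subunit of the enzyme that starts glutathione synthesis, measured 359, 209 and 415 CPM in the primary lines and 82.8 and 60.8 CPM in the metastatic ones. Its groups did not overlap, with a log2 fold change of -2.19 (SE 0.50). PGD, which yields NADPH in the pentose phosphate pathway, measured 1434, 547 and 1006 CPM against 161 and 168 CPM, a log2 fold change of -2.60 (SE 0.60). The metastatic lines were nearly equal in PGD, far below the lowest primary line. OSGIN1, an oxidative stress induced growth inhibitor, measured 104, 172 and 268 CPM against 23.6 and 30.1 CPM (log2 fold change -2.76, SE 0.57). The drug exporter ABCG2 measured 72.3, 30.9 and 50.0 CPM against 8.46 and 2.85 CPM (log2 fold change -3.17, SE 0.73). These 4 genes were called whichever single library was left out.

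Other called members are named after their values were seen, apart from AKR1C1, AKR1C2 and AKR1B10, which were among the genes that differed most in both patient pairs. NQO1, the quinone reductase often used to read NRF2 activity, measured 2750, 1240 and 6307 CPM in the primary lines and 559 and 704 CPM in the metastatic ones (log2 fold change -2.44, SE 0.85). The catalytic subunit gene GCLC and the pentose phosphate enzymes TKT and TALDO1 had log2 fold changes of -2.97, -1.99 and -1.76. TKT, for instance, measured 2062, 1905 and 1057 CPM against 377 and 464 CPM. The exporter genes ABCC2 and ABCB1 had log2 fold changes of -3.59 and -5.29, the latter at a low level of 0.383, 2.35 and 12.6 CPM against 0.249 and 0 CPM. NQO1, GCLC, TKT, TALDO1 and ABCB1 were not called with the patient as a block, with log2 fold changes of -1.56, -2.29, -2.24, -1.92 and -3.24 in that fit. NQO1 lost its call without WM983B, WM1617 or WM902B E+BRes (-1.63 to -2.63), and ABCC2 without WM983A, WM1617 or WM902B E+BRes (-2.72 to -3.59). GCLC kept its call only without WM278 E+BRes and ABCB1 only without WM983A E+BRes. TKT lost its call without WM983B E+BRes (-1.83) and TALDO1 without WM1617 E+BRes (-1.53). The aldo-keto reductase genes, which reduce steroids and reactive carbonyls, spread most between the primary lines. AKR1C1 measured 1237, 45.7 and 48.1 CPM against 3.73 and 0.466 CPM, and AKR1B10 3384, 36.3 and 24.6 CPM against 1.68 and 0.407 CPM. Both were far highest in WM983A E+BRes, the library that stood apart from its parent, and in both genes the groups did not overlap without it either. AKR1C1, AKR1C2 and AKR1B10 were not called without WM983B or without WM1617 E+BRes, though their log2 fold changes there were -6.89 and below. AKR1C1, AKR1C2 and AKR1C3 are near-identical neighbours, so reads may be split among them. Of the members not called, HMOX1 (heme oxygenase) measured 124.5, 317 and 157 CPM against 102 and 20.0 CPM, and SLC7A11 (the cystine carrier) 334, 565 and 971 CPM against 321 and 71.5 CPM, and in both genes the groups did not overlap.

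The difference of the list did not rest on WM983A E+BRes. Without it 12 of 24 tested members were called lower, all 24 were negative and the median log2 fold change was -2.18. Without WM1617 E+BRes only 6 of 26 were called, but all 26 were negative, with a median of -2.63. With the patient as a replicate block 8 of 25 were called, all 25 negative, and PGD, at a log2 fold change of -2.43, was not among them. AKR1C3 was not called without the block (log2 fold change -5.32) and was called with it (-6.52). In the sensitive lines 5 of 24 tested members were called lower in the lines of metastatic origin, with a median of -0.63, beside 0.888% of all genes called lower there. The median within-line log2 ratio of the resistant over the sensitive library was 2.21 in WM983A, 0.55 in WM278 and 2.32 in WM902B, and 0.21 in WM983B and 0.07 in WM1617. The test of that difference, the interaction of state and origin with the line as a block, called 5 of the 25 members lower, beside 0.674% of all 19881 genes tested in it, and none higher. The 5 were OSGIN1, PGD, HMOX1, TKT and TALDO1, with extra log2 changes of -2.82, -2.26, -1.98, -1.53 and -1.19 in the lines of metastatic origin. No gene passed an adjusted p in edgeR's interaction test, whereas 22 did in DESeq2.

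**Figure D1:**
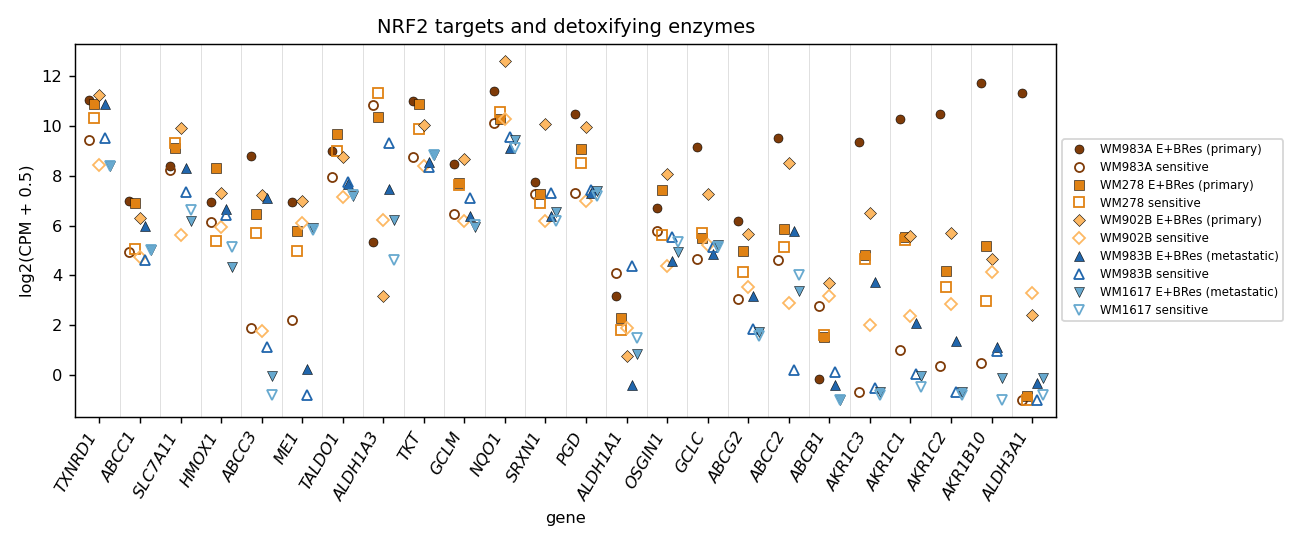
CPM on the log2(CPM + 0.5) scale of the tested NRF2 targets and detoxifying enzymes, all but 1 of the 25, in the 5 E+BRes libraries (filled) and their sensitive parents (open), 1 library each, ordered by log2 fold change; resistant and sensitive CPM were scaled separately. In most members, such as PGD and OSGIN1, both metastatic E+BRes libraries (triangles) lie below all 3 primary ones, and in the AKR1C genes WM983A E+BRes lies far above the rest.

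Melanocyte lineage and pigment genes went the other way. Of 18 tested members, 6 were called higher in the lines of metastatic origin and none lower, beside 1.6% of all genes called higher, and 4 of 18 did not overlap, beside 7.1%. All 18 had a positive log2 fold change with a median of 1.81. GPR143, a receptor of pigment granules whose upstream region is printed above, measured 1.30, 0.191 and 1.35 CPM in the primary lines and 35.3 and 82.5 CPM in the metastatic ones (log2 fold change 5.95, SE 0.96). Both metastatic lines were far above the primary ones, and GPR143 was called whichever library was left out and with the patient block (log2 fold change 6.55). In the sensitive lines WM278 alone was low, at 1.57 CPM against 14.5 to 76.2 CPM. DCT (dopachrome tautomerase) measured 7.66, 3.50 and 1.35 CPM against 46.4 and 1017 CPM (log2 fold change 6.99, SE 1.52). TYR (tyrosinase, the first enzyme of melanin synthesis) measured 0.996, 0.572 and 0.338 CPM against 2.74 and 161 CPM (log2 fold change 7.0, SE 1.68, and 2.09 and not called without WM1617 E+BRes). PMEL, which builds the fibrils of the pigment granule, measured 31.6, 4.26 and 7.09 CPM against 25.8 and 1953 CPM. Thus in PMEL WM983B E+BRes lay within the primary lines, and WM1617 E+BRes alone was high, and PMEL was not called without WM1617, WM278 or WM902B E+BRes. MLANA and SLC24A5, named after their values were seen, had the same pattern, at 3.92 and 1.43 CPM in WM983B E+BRes and 383 and 173 CPM in WM1617 E+BRes.

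Without WM1617 E+BRes 2 of 19 tested pigment genes were called, 8 of 19 had a positive sign, and the median log2 fold change was -0.11, so the direction of the list rested on that library. Without WM983B E+BRes 8 of 20 were called. With the patient block 3 of 18 were called, and DCT, TYR, PMEL, MLANA and SLC24A5, with log2 fold changes of 5.38, 4.79, 4.25, 4.63 and 4.16, were not among them. MITF, the lineage factor, measured 34.2, 14.4 and 219 CPM in the primary lines and 36.6 and 536 CPM in the metastatic ones, and SOX10 6.44, 273 and 0.675 CPM against 12.5 and 343 CPM. Both overlapped between the groups, with log2 fold changes of 1.68 (SE 1.46) and 0.93 (SE 2.28), and both turned negative without WM1617 E+BRes. In the parental cultures SOX10 measured 303 to 344 CPM in all 5 lines and the pigment list had a median log2 fold change of 0.38 by origin, with no member called. The median within-line log2 ratio of the pigment genes, resistant over sensitive, was -4.97, -0.11 and -1.98 in the primary lines WM983A, WM278 and WM902B, and -2.19 and -0.04 in the metastatic lines WM983B and WM1617. WM1617 E+BRes thus lay near the pigment levels of its parent, and WM278 was low in both states, with PMEL at 4.39 CPM in the sensitive library.

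**Figure D2:**
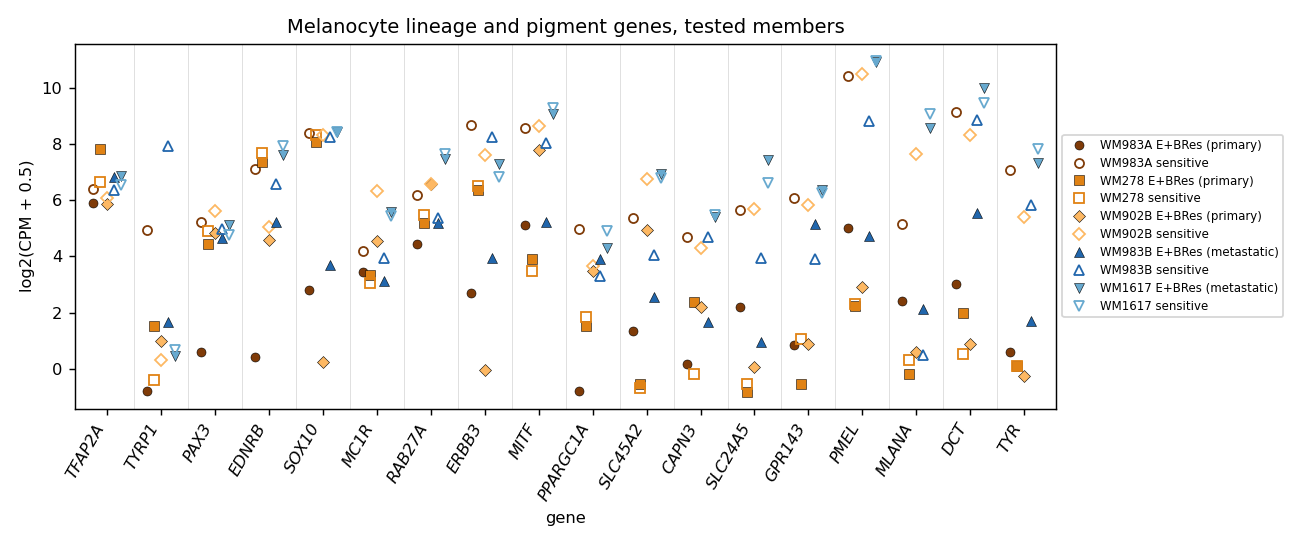
CPM on the log2(CPM + 0.5) scale of the 18 tested melanocyte lineage and pigment genes in the E+BRes libraries (filled) and their sensitive parents (open), 1 library each, ordered by log2 fold change; resistant and sensitive CPM were scaled separately. WM1617 E+BRes lies with its parent at the top in DCT, TYR, PMEL and MLANA, while WM983B E+BRes is clearly above the primary lines in GPR143 and DCT.

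ERK output genes were higher in the lines of metastatic origin in 3 of 19 tested members and lower in none, beside 1.6% and 1.96% of all genes. In 4 of 19 the groups did not overlap with the metastatic lines above, beside 7.1% of all genes, and the median log2 fold change of the list was 1.11. ETV1, an ETS factor, measured 10.4, 17.4 and 8.91 CPM in the primary lines and 61.9 and 75.7 CPM in the metastatic ones (log2 fold change 2.49, SE 0.45). The same factor measured 58.7, 139 and 84.6 CPM in the sensitive primary lines and 73.7 and 63.2 CPM in the sensitive metastatic ones, and the interaction gave an extra log2 change of 2.92, which was called. ETV5 measured 39.8, 29.6 and 14.9 CPM against 82.9 and 145 CPM (log2 fold change 2.02, SE 0.55). SPRY4, a feedback inhibitor of the pathway, measured 31.5, 15.0 and 43.0 CPM against 58.9 and 281 CPM (log2 fold change 2.51, SE 0.79). All 3 were lower in the primary E+BRes lines than in their own parents, and in the metastatic lines ETV1 stood near the parental level. EGR3, an immediate early factor outside the list, measured 1.46, 0.763 and 0.270 CPM against 14.3 and 71.4 CPM, with 41.3, 75 and 77.7 CPM in the sensitive primary lines. DUSP6, a phosphatase of ERK that is a standard readout and is named after its values were seen, overlapped at 14.6, 115 and 7.22 CPM against 48.0 and 174 CPM. The median within-line log2 ratio, resistant over sensitive, was -1.39 in WM983A, -1.35 in WM278 and -2.23 in WM902B, and -0.28 in WM983B and 0.05 in WM1617. The interaction called 4 of 18 members higher, beside 1.16% of all genes: SPRED1, another inhibitor of the pathway, at 1.89 on the log2 scale, and ETV1, ETV5 and SPRY4. Without WM1617 E+BRes 2 of 19 were called by origin, 9 of 19 were positive and the median was -0.0037. SPRY4 and ETV5, with log2 fold changes of 0.97 and 1.56 there, were no longer called, and SPRY4 was not called without WM983A or WM278 E+BRes either. With the patient block ETV1 was the called member of 19, ETV5 and SPRY4 being at 1.68 and 2.56.

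**Figure D3:**
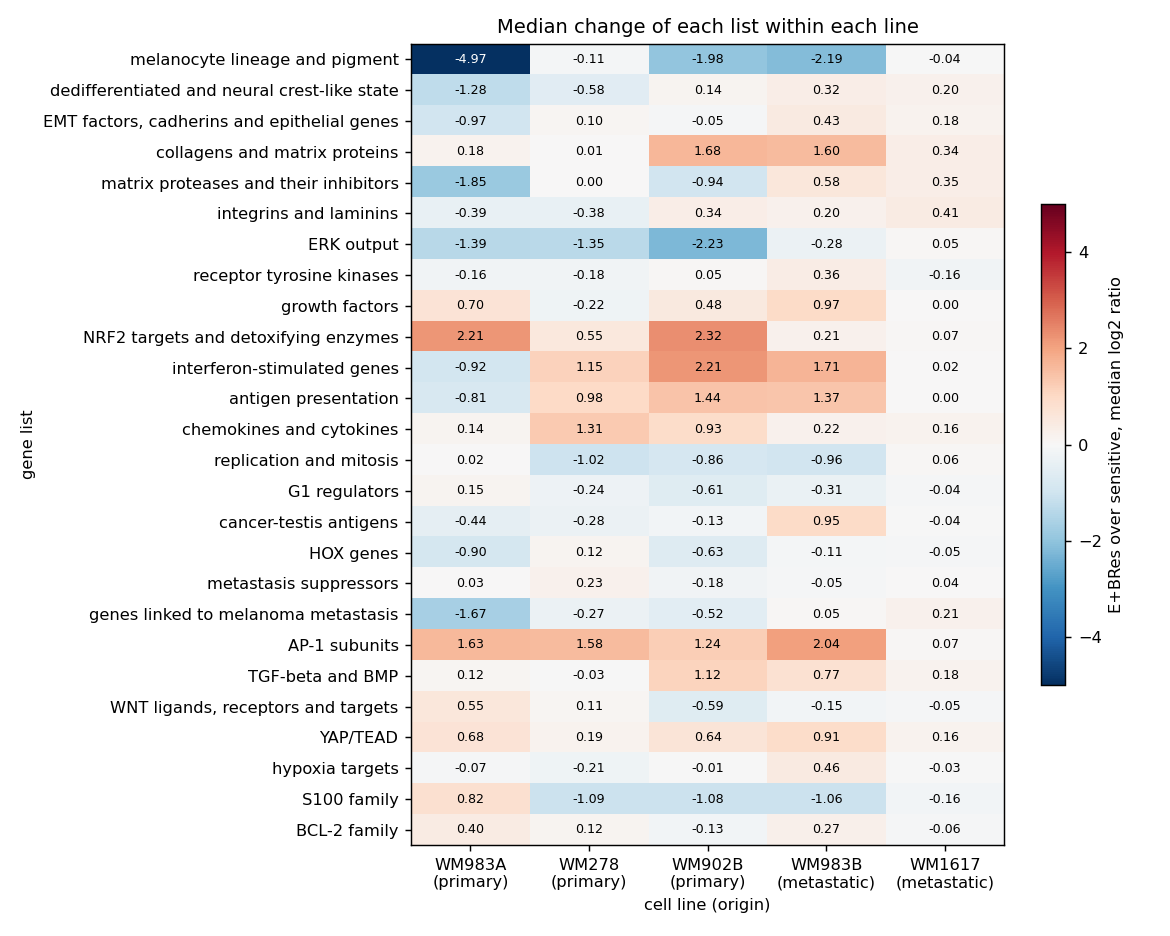
Median log2 ratio of E+BRes over sensitive CPM for each of the 26 gene lists (rows) in each line (columns), over the members tested by origin. The pigment list is lowest in WM983A (-4.97) and the ERK output list in WM902B (-2.23), the NRF2 list is highest in these 2 lines, and no list in WM1617 passes 0.41 in either direction.

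The 12 protein-coding genes with the smallest p among those higher in the lines of metastatic origin included enzymes, receptors and adaptors that were called whichever library was left out and with the patient block. DHRS2, a dehydrogenase of the short-chain family, measured 1.15, 0.827 and 1.28 CPM in the primary lines and 71.3 and 29.6 CPM in the metastatic ones (log2 fold change 5.53, SE 0.60). In the sensitive lines only WM1617 held DHRS2 at a like level, 28.3 CPM against 0.627 to 3.01 CPM elsewhere. UNC13A, a factor of vesicle release, measured 0.613, 0.382 and 0.203 CPM against 36.9 and 13.85 CPM. SH2B3 (LNK), an adaptor that restrains cytokine receptor and JAK signals, measured 53.6, 54.9 and 41.3 CPM against 258 and 314 CPM, with a log2 fold change of 2.52 (SE 0.37). In the sensitive lines it was lower by origin, at 388, 724 and 352 CPM against 220 and 238 CPM (log2 fold change -1.09, called), and the interaction gave an extra log2 change of 3.53. ADGRG1 (GPR56), an adhesion receptor, measured 22.1, 25.8 and 16.6 CPM against 104 and 116 CPM, and all 3 sensitive primary lines held 106 to 270 CPM. ITGA7, a laminin receptor, was nearly equal in both metastatic lines at 11.8 and 11.5 CPM and at 1.07, 1.46 and 1.35 CPM in the primary lines. The focal adhesion gene TNS1, the glycolysis regulator PFKFB4, the adhesion molecule CEACAM1 and C3orf67 had log2 fold changes from 3.10 to 5.14, and GPR143, ETV1 and EGR3 completed the set. PFKFB4 measured 11, 18.4 and 21.4 CPM against 88.3 and 213 CPM, and CEACAM1 0.766, 1.27 and 3.31 CPM against 28.1 and 98.7 CPM.

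The 12 genes with the smallest p among those lower in the lines of metastatic origin were in part at or near 0 there. LDOC1, a regulator of transcription on the X chromosome, measured 53.9, 65.6 and 19.7 CPM in the primary lines. The metastatic libraries held 3 counts in all, a level at least 257-fold below the primary mean. PXDN, a peroxidase that cross-links collagen IV, measured 65.5, 99.1 and 27.3 CPM. With 4 counts in the metastatic libraries it lay at least 354-fold below the primary mean. In the sensitive state PXDN was high in WM278 alone, at 130 CPM against 0 to 0.535 CPM in the other lines. KCNMA1, a large-conductance potassium channel, measured 164, 112 and 141 CPM against 16.1 and 11.8 CPM (log2 fold change -3.32, SE 0.44). It was at 0.781 and 1.67 CPM in sensitive WM983A and WM902B and at 183 CPM in sensitive WM278, so the 3 primary lines were alike only in the resistant state. IGF2BP1, an oncofetal RNA-binding protein, measured 81.5, 38.8 and 24.9 CPM against 0.933 and 0.640 CPM and was lower in the sensitive lines too (log2 fold change -7.69). MGLL, which breaks down monoacylglycerols, measured 236, 211 and 94.1 CPM against 8.77 and 3.49 CPM. TGFB2, a ligand of the TGF-beta pathway, measured 65.6, 32.4 and 87.0 CPM against 0.249 and 1.63 CPM (log2 fold change -6.02, SE 1.09). LPAR1, a receptor for lysophosphatidic acid, measured 74.6, 50.3 and 134 CPM against 9.09 and 5.24 CPM. TWIST2, a factor of epithelial-mesenchymal transition, and ZNF229 had no count in either metastatic library. These levels were at least 33.0-fold and 38.2-fold below their primary means. SAMD5, CACNA2D1 (a calcium channel subunit) and CLCN4 (a chloride-proton exchanger) had primary levels of 4.14 to 40.6 CPM and metastatic levels of 0.0582 to 1.98 CPM. All 12 were called whichever library was left out and with the patient block. Like the 12 higher genes, they were chosen by their p in these same libraries, so these refits are no independent support.

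**Figure D4:**
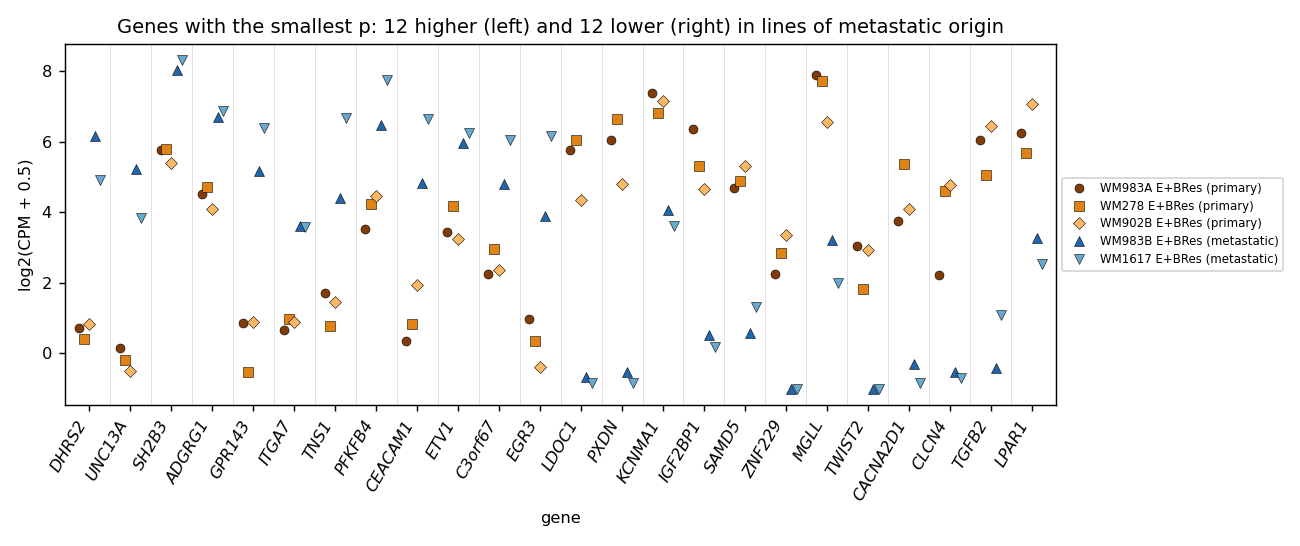
CPM on the log2(CPM + 0.5) scale in the 5 E+BRes libraries, 1 library each, for the 12 protein-coding genes with the smallest p in each direction. The groups do not overlap, as the rule for naming these genes required, and both metastatic libraries are at 0 CPM in ZNF229 and TWIST2.

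Matrix and invasion genes did not move as a group. Among 28 tested collagens and matrix proteins, 4 were called higher and 1 lower, beside 1.6% and 1.96% of all genes, while 19 had a negative sign and the median log2 fold change was -1.27. That median was -3.80 without WM983B and -0.33 without WM1617 E+BRes, and limma-voom called 0 members higher. Each of the higher ones had its high level in 1 metastatic line. HAPLN1, a linker of hyaluronan and proteoglycans, measured 1.23, 0.572 and 0.540 CPM in the primary lines and 3.98 and 457 CPM in the metastatic ones, and it was at 320 CPM in sensitive WM1617. COL6A3 measured 4.14, 2.54 and 4.25 CPM against 82.9 and 7.27 CPM, and COL9A3 overlapped at 19.7, 35.4 and 2.70 CPM against 24.6 and 1302 CPM. POSTN (periostin), named after its values were seen, was at 1262 CPM in WM983B E+BRes and at 0.135 to 8.91 CPM in the other 4. FBLN1 (fibulin-1) was the called lower member, at 157, 32.3 and 10.3 CPM against 0.124 and 0.640 CPM (log2 fold change -7.40, SE 1.75), and it kept its call in all 5 leave-outs. HAPLN1, COL6A3, COL9A3 and POSTN lost theirs with the patient block, with log2 fold changes of 5.63, 2.93, 2.77 and 4.48. HAPLN1 lost it without WM1617 E+BRes (2.34), COL6A3 without WM983B E+BRes (1.01) and COL9A3 without WM1617 E+BRes (0.35), WM983A or WM902B E+BRes.

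Among 25 tested matrix proteases and inhibitors, 3 were called higher and none lower, beside 1.6% and 1.96% of all genes, with a median of 0.27 that turned to -0.47 without WM983B, -0.31 without WM1617 and -0.14 without WM983A E+BRes. MMP9 (gelatinase B) was at 0.153, 0.572 and 0.135 CPM in the primary lines and at 269 and 0.757 CPM in the metastatic ones, so its log2 fold change of 8.82 (SE 2.31) came from WM983B E+BRes, without which it was 1.37 and not called. With the patient block it was 5.34 and not called. ADAMTS4 was at 0.0766, 0 and 0.338 CPM against 1.49 and 48.6 CPM, and was not called without WM1617 E+BRes (log2 fold change 3.35). PLAUR, the urokinase receptor, measured 21.8, 14.1 and 17.2 CPM against 46.1 and 32.9 CPM (log2 fold change 1.16, SE 0.41), and it lost its call with the patient block (1.15) and in 3 of 5 leave-outs, those of WM983B, WM278 and WM902B E+BRes (0.91 to 1.16). MMP2 (gelatinase A) measured 55.9, 170 and 895 CPM against 161 and 64.2 CPM and was not called (log2 fold change -1.73, SE 1.25, and 0.06 with the patient block). Among 26 integrins and laminins, 3 were higher and 1 lower, beside 1.6% and 1.96% of all genes. LAMA1 measured 1.07, 11.1 and 6.68 CPM against 39.1 and 37.0 CPM, ITGA9 0.460, 0.954 and 0.945 CPM against 1.68 and 26.0 CPM, and ITGB5 366, 256 and 253 CPM against 160 and 81.2 CPM. Of these, ITGA7 alone kept its call with the patient block, LAMA1, ITGA9 and ITGB5 having log2 fold changes of 3.41, 3.36 and -1.43 there. Without WM1617 E+BRes none of these 3 was called, at 2.62, 1.08 and -0.87. LAMA1 was not called without WM983B or WM902B E+BRes either (2.55 and 2.64), and ITGB5 was called in 1 of 5 leave-outs, that of WM983B E+BRes.

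Of 19 tested factors and markers of epithelial-mesenchymal transition, SNAI1 was called higher and TWIST2 lower, beside 1.6% and 1.96% of all genes. SNAI1 measured 7.66, 25.5 and 19.2 CPM in the primary lines and 42.5 and 57.9 CPM in the metastatic ones (log2 fold change 1.52, SE 0.59). It was not called with the patient block (1.82) or without WM983B (1.73), WM1617 (1.27) or WM902B E+BRes (1.61). The cadherin CDH2 measured 64.9, 154 and 1.82 CPM against 117 and 104 CPM, ZEB1 29.8, 14.6 and 47.4 CPM against 0.871 and 27.1 CPM, and ZEB2 6.13, 163 and 113 CPM against 142 and 89.3 CPM. None of these 3 was called, and in each the groups overlapped. CDH1 (E-cadherin) was at 59.8 CPM in WM983A E+BRes and at 0 to 0.233 CPM in the other 4 and was below the filter for testing. VIM (vimentin) was high in all 5, at 1817, 2124 and 3845 CPM against 3493 and 4147 CPM. Of 20 genes of the dedifferentiated and neural crest-like state none was called by edgeR. With the patient block 2 were called higher and none lower, beside 1.42% and 1.94% of all genes. AXL measured 640, 285 and 264 CPM against 212 and 9.89 CPM, both metastatic lines being below the primary ones (log2 fold change -1.84, SE 1.26, not called). EGFR was at 174, 54.4 and 46.5 CPM against 96.5 and 0.873 CPM and NGFR at 11.8, 8.08 and 2.97 CPM against 14.1 and 3.14 CPM, both with overlap.

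In the TGF-beta and BMP list 2 of 24 tested members were called higher and 3 lower, beside 1.6% and 1.96% of all genes. With TGFB2, the receptor TGFBR2 was lower, at 145, 126 and 104 CPM against 59.6 and 63.5 CPM (log2 fold change -1.03, named after its values were seen), as was FST, the follistatin that binds activin, at 4.98, 9.03 and 9.59 CPM against 0.933 and 0.175 CPM. The other receptor subunit TGFBR1 was higher, at 43.6, 32.9 and 21.5 CPM against 149 and 85.0 CPM (log2 fold change 1.84, SE 0.48), and so was the ligand TGFB3, at 1.07 to 1.40 CPM against 3.67 and 13.2 CPM. A ligand and a receptor were thus found in each direction, although TGFBR2 lost its call in each leave-out, at log2 fold changes of -0.91 to -1.12. TGFBR1, TGFB3 and TGFBR2 were not called with the patient block (log2 fold changes 1.57, 2.51 and -1.14), nor TGFBR1 without WM983B E+BRes (1.40) and TGFB3 without WM1617 E+BRes (1.62). In the WNT list 1 of 26 tested members was called higher and 1 lower, beside 1.6% and 1.96% of all genes. RNF43, a ligase that removes WNT receptors, was the higher one, at 0.919, 0.509 and 0.0675 CPM against 8.28 and 17.6 CPM. NKD2 had no count in the metastatic libraries against 14.6, 1.40 and 1.69 CPM. That is at least 32.7-fold below the primary mean, which came mostly from WM983A E+BRes.

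Among cell cycle genes, 1 of 17 regulators of the G1 phase was called higher and 2 lower, beside 1.6% and 1.96% of all genes. None of 29 replication and mitosis genes was called by edgeR with or without the patient block, with a median log2 fold change of 0.13. CDKN1A (p21), which blocks cyclin-dependent kinases, measured 82.0, 331 and 42.1 CPM in the primary lines and 13.7 and 13.5 CPM in the metastatic ones (log2 fold change -3.48, SE 1.05). CDKN2C was lower too, at 110, 94.8 and 160 CPM against 60.9 and 41.8 CPM, and CDK2 higher, at 98.1, 44 and 49.7 CPM against 105 and 278 CPM. Of the 3, CDKN1A kept its call with the patient block (-3.60), CDKN2C and CDK2 being at -1.01 and 1.37. CDKN1A lost it without WM983B or WM1617 E+BRes, where the log2 fold change stayed at -3.48 in both, and CDKN2C and CDK2 lost it without WM1617 E+BRes (-1.01 and 0.71) and in 2 further leave-outs each. Among 22 receptor tyrosine kinases INSR and EPHA3 were higher and DDR1 lower, beside 1.6% and 1.96% of all genes. DDR1, a collagen receptor, measured 17.3, 20.1 and 18.9 CPM against 4.79 and 6.58 CPM. None of the 3 was called with the patient block, with log2 fold changes of -1.73 in DDR1, 1.08 in INSR and 3.44 in EPHA3. DDR1 was not called without WM983B E+BRes (-1.50). INSR was tight within each group, at 12, 11.1 and 10.7 CPM against 23.3 and 25.4 CPM, although it lost its call in each leave-out, at log2 fold changes of 1.04 to 1.19. EPHA3 overlapped, at 2.30, 4.83 and 15.3 CPM against 4.67 and 266 CPM, and turned negative without WM1617 E+BRes (log2 fold change -0.69).

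Hypoxia targets had a median log2 fold change of 1.11, with 2 of 18 called higher and 1 lower, beside 1.6% and 1.96% of all genes. P4HA1, a collagen prolyl hydroxylase, measured 38.0, 61.8 and 102 CPM in the primary lines and 211 and 333 CPM in the metastatic ones (log2 fold change 2.01, SE 0.54, and 1.63 and not called without WM1617 E+BRes). CA9 was at no more than 2 counts in all in the primary libraries and at 1.56 and 5.24 CPM in the metastatic ones. The metastatic mean was at least 16.4-fold higher, and CA9 was not called without WM1617 E+BRes. CA12, the lower member, was high in WM983A E+BRes alone, at 305 CPM, and was not called without either metastatic line. With the patient block 6 of 18 were higher, beside 1.42% of all genes in that fit. STC1 and PDK1, named after their values were seen, were among them, and in both WM902B E+BRes lay with the metastatic lines, PDK1 at 14.5, 15.6 and 107 CPM against 94.1 and 230 CPM. Of 19 genes linked to melanoma metastasis, 3 were higher, beside 1.6% of all genes. PTP4A3, a phosphatase, measured 1.92, 0.445 and 2.09 CPM against 14.7 and 15.0 CPM (log2 fold change 3.32, SE 0.79), ANGPTL4 9.65, 4.33 and 7.90 CPM against 240 and 17.0 CPM, and ENO2, the neuronal enolase, 48.6, 32.5 and 87.2 CPM against 143 and 406 CPM. All 3 kept their call with the patient block, with which 5 of 19 were higher, beside 1.42% of all genes, but ANGPTL4 lost it without WM983B (log2 fold change 1.24) and ENO2 without WM1617 E+BRes (1.34). LGALS3 (galectin-3) measured 102, 4.13 and 210 CPM against 113 and 775 CPM and CAPG 81.6, 0.191 and 82.0 CPM against 40.0 and 146 CPM, both with overlap and not called. MTSS1 was the member called higher among 14 tested metastasis suppressors, beside 1.6% of all genes. It measured 4.37, 2.35 and 3.38 CPM against 65.2 and 15.8 CPM (log2 fold change 3.59, SE 0.73), with an interaction of 3.92 on the log2 scale.

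Of the immune lists, 27 interferon-stimulated genes and 14 genes of antigen presentation held no member called by edgeR. With the patient block 1 member of each was called higher, beside 1.42% of all genes. The interferon genes were high in WM983B E+BRes, whose summed CPM was 5842, and low in WM1617 E+BRes with 453, so the metastatic lines lay at the opposite ends of the 5 lines, the primary ones holding 472.5, 1202 and 2419 CPM. OAS3, for example, measured 125, 57.2 and 87.6 CPM against 519 and 38.1 CPM. In the list of chemokines and cytokines 2 of 18 tested members were lower, beside 1.96% of all genes. BIRC3, a member that is neither, is an inhibitor of apoptosis and target of NF-kappaB. It measured 113, 133 and 5.54 CPM against 1 count in both metastatic libraries, at least 465-fold below the primary mean of 84.0 CPM. IL24 measured 1.69, 59.8 and 33.6 CPM against 0.996 and 0.0582 CPM, and was not called with the patient block or without WM1617, WM278 or WM902B E+BRes. None of the 12 AP-1 subunits, 16 YAP/TEAD genes, 35 HOX genes or 14 BCL-2 family genes was called by edgeR. With the patient block 2 HOX genes and 1 BCL-2 family gene were lower, beside 1.94% of all genes, and the AP-1 and YAP/TEAD lists again held none. In the remaining lists MAGEA4 of 12 cancer-testis antigens, S100A1 of 9 S100 genes and HBEGF of 22 growth factors were called higher, beside 1.6% of all genes. Each had its high level in 1 metastatic line. MAGEA4 and S100A1 stood at 119 and 111 CPM in WM1617 E+BRes and at 1.12 and 2.92 CPM in WM983B E+BRes, while HBEGF stood at 48.7 CPM in WM983B and 6.23 CPM in WM1617 E+BRes. None of the 3 was called with the patient block or without the line that held the high level, where their log2 fold changes were 0.69, 0.76 and 0.73.

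The ratio of the metastatic to the primary resistant line was also taken within each patient, on the log2(CPM + 0.5) scale. In all, 550 of the 18820 genes were at least 2-fold higher and 676 at least 2-fold lower in both pairs, while 1257 were at least 2-fold higher in WM983B over WM983A and 2-fold lower in WM1617 over WM278, and 640 the other way round. Genes that differed in opposite directions in the pairs thus outnumbered those that differed together. With the patient as a replicate block 267 genes were higher (1.42%) and 365 lower (1.94%), none past an adjusted p in edgeR, of which 294 were among the 669 called without it. Among the genes that differed most in both pairs, IL2RB, a chain of interleukin receptors, measured 0.460, 0 and 0.473 CPM against 16.9 and 73.85 CPM. BIRC7 (livin), an inhibitor of apoptosis, measured 6.90, 0.382 and 27.5 CPM against 160 and 224 CPM, and CDKN2A, which encodes an inhibitor of CDK4 and CDK6, 9.42, 4.01 and 134 CPM against 295 and 556 CPM, with WM902B E+BRes between. CDKN2A was not called across the 5 lines (log2 fold change 3.12, SE 1.49), and BIRC7 was called (4.05). BIRC7 lost its call without WM983A, WM983B or WM1617 E+BRes (3.77 to 4.28). In the sensitive state CDKN2A was low in WM278 alone, at 3.38 CPM against 176 to 610 CPM. Downward, AKR1C2, EDN1 (endothelin-1) and AMIGO2 were lower in both pairs, EDN1 at 125, 21.9 and 8.10 CPM against 0.871 and 0 CPM. Without WM1617 E+BRes neither EDN1 nor AMIGO2 was called (log2 fold changes -5.88 and -4.36), and AMIGO2 was not called without WM983B E+BRes either.

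**Figure D5:**
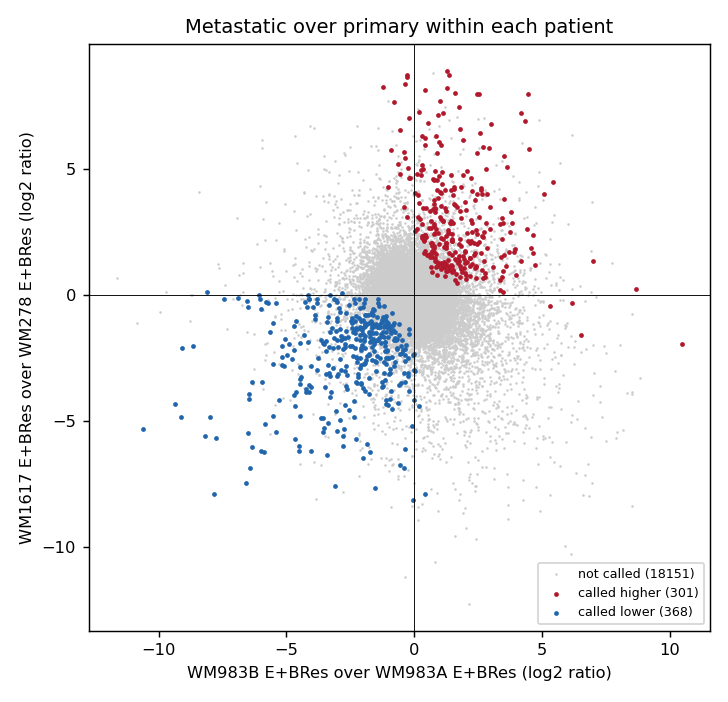
Log2 ratio of metastatic over primary E+BRes for 18820 genes in the WM983B and WM983A pair (x axis) and the WM1617 and WM278 pair (y axis), with the 301 genes called higher and the 368 called lower in colour. Most called genes lie in the upper right (279 of the 301 higher) or the lower left (358 of the 368 lower). Of all genes shown, 1257 are at least 2-fold higher on the x axis and 2-fold lower on the y axis.

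In the sensitive lines the same contrast called 94 genes higher (0.525% of 17911 tested) and 159 lower, none past an adjusted p in edgeR, where 311 had an unadjusted p of at most 0.05 and DESeq2 gave 24 past an adjusted p. Of the genes called in the resistant lines, 16 of the 291 higher and 36 of the 242 lower that could be tested were also called in the same direction in the sensitive ones, 52 in all. IGF2BP1, ABCG2, DDR1 and FBLN1 were among the named genes lower in both states. The interaction called 231 genes with a more positive and 134 with a more negative change from the sensitive to the resistant state in the lines of metastatic origin. None passed an adjusted p there in edgeR, the smallest being 1, while 373 had an unadjusted p of at most 0.05 and DESeq2 gave 22 past an adjusted p. The interaction shares its libraries with both comparisons by origin.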

How the data were processed

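Poly-A mRNA of 5 melanoma lines was sequenced in a sensitive and a resistant state, and each line and state gave 1 library. Sequencing was single-end with 75 cycles. Per the study's methods, the authors aligned the reads with HISAT2 to GRCh38 and processed them in StrandNGS. Tool versions, the annotation and the treatment of shared reads are not given in the sources used here. The deposited files hold expected counts per gene with fractions, which were rounded to whole numbers here. They also hold log2 values that the authors normalized by DESeq and set to the sensitive library of the same line. Those log2 values were used in no test. Each file lists 57955 genes, of which 56911 (98.2%) were matched to GENCODE release 44 for coordinates and biotype. In the sensitive WM983B file 455 values were held as dates, and those genes, TGFB2 among them, were left out of every fit with sensitive libraries.

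Counts were filtered with filterByExpr, scaled by TMM and tested with edgeR 4.0.16 (R 4.3.3) in the quasi-likelihood framework, with the 5 resistant libraries in 2 groups. The sensitive lines were tested in the same way, and the interaction of state and origin was fitted over all 10 libraries with the line as a block. A gene was called at an unadjusted p of at most 0.05 and a fold of at least 2. CPM of resistant and sensitive libraries were scaled separately. For a gene with at most 3 counts in every library of a group, a bound on the fold from 3 counts per library is given in place of the fitted value. The bound sets the mean of the other group against that floor, so it need not hold for each line. Alternatives were DESeq2 1.42.0, limma-voom (limma 3.58.1), DESeq2 size factors in edgeR, no filter, all 10 libraries, each library left out, and the patient as a replicate block. The pairs come from the study's description of the lines, which gives WM983A and WM983B 1 patient and WM278 and WM1617 another. In that fit WM902B has no partner and adds nothing to the difference by origin, which rests on 2 pairs. A call kept or lost in it is thus a weak check on a single gene. The fits were tested on simulated data.

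The genes named are, in each direction, the 12 protein-coding genes with the smallest p, no overlap and a mean of at least 5 CPM in the higher group, and the 8 that differed most in both patient pairs. In each list up to 4 called members are named, or the 2 with the smallest p, along with anchors of cell state. Genes outside these are said to be chosen after their values were seen. The comparison, its 26 gene lists and the 5 marker lists were chosen with earlier results of these data known. The lines are the replicates, so p-values measure the spread between lines, and floors cover counting error only. Of the NRF2 targets and detoxifying enzymes, 1 gene is not reported here by itself and is left out of the plot, but it is included in the list's counts and medians.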

Additional observations from a re-analysis of the deposited data

Results flagged for a closer look

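For 21 of the genes that the naming rule gave, edgeR's interaction test called the difference by origin unlike between the resistant and the sensitive state. The call was at an unadjusted p, although every adjusted p was 1. Of all 19881 genes tested there, 1.16% were called more positive and 0.674% more negative. Many of the 21 were named for their difference in the resistant libraries, which enter the interaction too, so their number cannot be read against these shares. The values are extra log2 changes from the sensitive to the resistant state in the lines of metastatic origin, over 3 primary and 2 metastatic lines. Among ERK output genes and early factors they were 2.92 in ETV1, 1.99 in ETV5, 2.73 in SPRY4 and 6.78 in EGR3. Among NRF2 targets they were -2.82 in OSGIN1 and -2.26 in PGD. Among adaptors and receptors they were 3.53 in SH2B3, 2.73 in ADGRG1, 2.84 in PLAUR and -8.52 in ROR2, a receptor for WNT ligands. Among matrix proteins and proteases they were 3.23 in COL6A3 and 5.93 in ADAMTS4. ROR2 measured 8.04, 0.0636 and 14.9 CPM in WM983A, WM278 and WM902B E+BRes and 0.124 and 0.349 CPM in WM983B and WM1617 E+BRes. Among transcription factors they were 1.99 in SNAI1 and -1.94 in ATF3. The remaining values were 5.71 in the pigment gene GPR143, 4.58 in UNC13A, 3.67 in BIRC7, 3.45 in NKAIN4, 3.92 in MTSS1, -3.13 in IL24 and -11.04 in NKD2. NKD2 had no count in either metastatic E+BRes library, so its fitted value is no bound.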

How the results depend on the processing

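DESeq2 size factors in edgeR gave 667 called genes by origin in the resistant lines, 662 of them among the 669 of the reported fit. With no filter on low counts there were 601 higher and 692 lower genes and 620 called in the sensitive lines, with more genes tested. DESeq2's Wald test gave 636 lower genes, 209 past an adjusted p, 513 called in the sensitive lines and 561 in the interaction, and limma-voom gave 213 lower genes. The interaction without the line as a replicate block called 191 genes in place of 365. With the patient as a replicate block 632 genes were called, 294 of them among the 669, and 49 of the 75 called genes that the naming rule gave had a p of at most 0.05. The cause of these differences was not tested. Leaving out 1 library gave 271 to 577 higher and 246 to 543 lower genes, and 0 to 0 past an adjusted p in edgeR. It gave 171 to 964 called genes in the sensitive lines, the highest without sensitive WM983B, and 356 to 657 in the interaction. Of the 75 called genes, 38 were called in all 5 leave-outs, 16 in 4 and 21 in 3 or fewer. Of these 75, EPHA3 was the gene whose sign turned, its log2 fold change ranging from -0.69 to 5.26. Among the called genes named after their values were seen, SLC24A5 stood at -0.11 without WM1617 E+BRes. POSTN stood at -0.71 without WM983B E+BRes. The other genes whose sign turned among those that the naming rule gave were not called in the reported fit. Over the leave-outs their log2 fold changes ranged from -3.15 to 4.21 in SOX9, -1.22 to 2.52 in OAS3, -0.53 to 2.24 in USP18, -1.50 to 2.06 in TAPBP, -6.75 to 3.64 in HLA-E, -0.29 to 1.35 in MCM4 and -1.28 to 5.25 in GAGE1. They ranged from -1.30 to 3.59 in MITF, -2.91 to 5.64 in SOX10, -1.25 to 0.88 in NGFR, -6.67 to 0.069 in EGFR, -0.25 to 0.96 in ZEB2, -2.54 to 0.0046 in MMP2 and -0.46 to 1.44 in CAPG. With the patient block HLA-E stood at -0.48, NGFR at -0.55 and MMP2 at 0.060. The 2 metastatic libraries limit the precision, and leaving 1 out assumes that the lone library varies like the primary group.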

Other observations

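The list medians of WM1617 E+BRes lay close to those of its sensitive parent, from -0.16 to 0.41 on the log2 scale over the 26 gene lists, and the pair correlated at 0.985 across 18580 genes. WM983B, the other line of metastatic origin, had list medians from -2.19 to 2.04 and correlated at 0.917 with its parent. COL1A1 measured 1231 CPM in WM902B E+BRes, 88.2 in WM983B and 75.9 in WM278 E+BRes, with COL1A2 at 0.0675, 0.809 and 0.572 CPM in the same libraries. Both genes encode chains of type I collagen.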
